A study of Mus musculus with 36 samples.

Results

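CP2, a small molecule that inhibits mitochondrial complex I, was compared with vehicle in the brains of wild-type (WT) mice. The samples were taken by their titles and comprise 18 of the 36 in the data set, 10 given CP2 and 8 given vehicle. All mice were between 37 and 45 days old and received CP2 or vehicle by gavage for 3 days. RNA came from tissue labelled brain, which the design text describes as hippocampus and cortex. Strain and dose were not used here, and the WT samples carry no engineered allele in their labels. Each title holds a letter, F or M, which the labels do not define. CP2 was given to 5 F and 5 M samples and vehicle to 5 F and 3 M samples, so the letter was a covariate in every comparison. The other 18 samples, from mice lacking Ndufs4 (knockout, KO), were used only to set the WT values beside the same treatment in that genotype.

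Complex I is the entry point of the respiratory chain for electrons from NADH. It is built from subunits encoded in the nucleus and in mitochondrial DNA, and its activity sets the ratio of NADH to its oxidised form, proton pumping and part of the cell's superoxide production. Blocking it is known to activate the AMP-activated kinase AMPK, which senses a fall in ATP, and strong block is known to turn on ATF4, the transcription factor of amino acid and mitochondrial stress, and to raise glycolysis. These routes, the cell types of the tissue and the activity-dependent genes of neurons were therefore read one by one. The question was which of their transcripts moved in WT brain and, where none did, how large a change the samples could still have hidden.

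The WT libraries held between 46100000 and 77500000 gene counts (median 52400000). Reads assigned to no gene or to more than 1, called outside genes here, made up 7.22% to 15% of all. In F this share ran from 7.56% to 9.18% under CP2 and from 7.22% to 9.13% under vehicle. In M it ran from 11% to 15% and from 11.5% to 13.5%, so F and M did not overlap. Xist lay between 550 and 798 CPM (counts scaled to library size) in F and at or below 0.833 CPM in M, while Ddx3y lay at or below 0.214 CPM in F and between 61.8 and 74.3 CPM in M, so both followed the letter. Ndufs4 was measured at similar levels under both treatments, with 48.6 ± 5.89 CPM (SD, n = 10) under CP2 and 50.0 ± 6.82 CPM (SD, n = 8) under vehicle. No difference between the treatments in depth or in the share outside genes passed the test. Depth differed by 0.026 on the log2 scale with the letter held (exact two-sided permutation p = 0.813). The share outside genes was 10.7% ± 2.99 (SD, n = 10) under CP2 and 9.62% ± 2.28 (SD, n = 8) under vehicle. With the letter held it differed by 0.502 percentage points (exact two-sided permutation p = 0.348). The number in the sample titles, whose meaning the labels do not give, was lower under CP2, at 265 ± 23.2 (SD, n = 10) against 286 ± 16.8 (SD, n = 8) (exact two-sided permutation p = 0.0413). The labels do not say whether the samples were prepared together, so the p-values measure the spread between these samples only.

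In WT brain, 3 days of CP2 changed no gene at an adjusted p under 0.05 among 23140 tested by the edgeR quasi-likelihood method (0% called; smallest adjusted p 0.213). Without adjustment, 1407 genes (6.08%) had a p under 0.05, 763 (3.3%) higher and 644 (2.78%) lower under CP2, against 1157 that evenly spread p-values would give. limma voom also called 0 genes, with 2056 at an unadjusted p under 0.05. DESeq2 called 7 genes (0.0303%), with 1608 at an unadjusted p under 0.05. Those 7 genes are described with the others of smallest p.

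A count of 0 says nothing of size, so the 95% interval of each gene's log2 fold change was read instead. A change of a given size was taken as excluded for a gene when its whole interval lay inside that fold in both directions. The interval is for an effect shared by F and M, so it does not bound a change in F or M alone. The sizes read were 2-fold, 1.5-fold and a 25% change, meaning a rise of 25% or the matching fall of 20%. Over all tested genes, 2-fold was excluded for 74.5%, 1.5-fold for 61.7% and a 25% change for 46.7%. This share rose with the level of the transcript, although some genes above 100 CPM also had wide intervals. For Arc, at a mean of 165 CPM, the largest fold inside the interval was 3.16, and for Hbb-bs, at 114 CPM, it was 3.65. Among the 15354 genes with a mean of at least 1 CPM, a 2-fold change was excluded for 98.9%, a 1.5-fold change for 91.8% and a 25% change for 70.4%. For the median gene of that group the largest fold inside the interval was 1.16, and for 95 in 100 of them it was at most 1.60. For 165 of these genes the interval reached 2-fold or beyond.

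**Figure D1:**
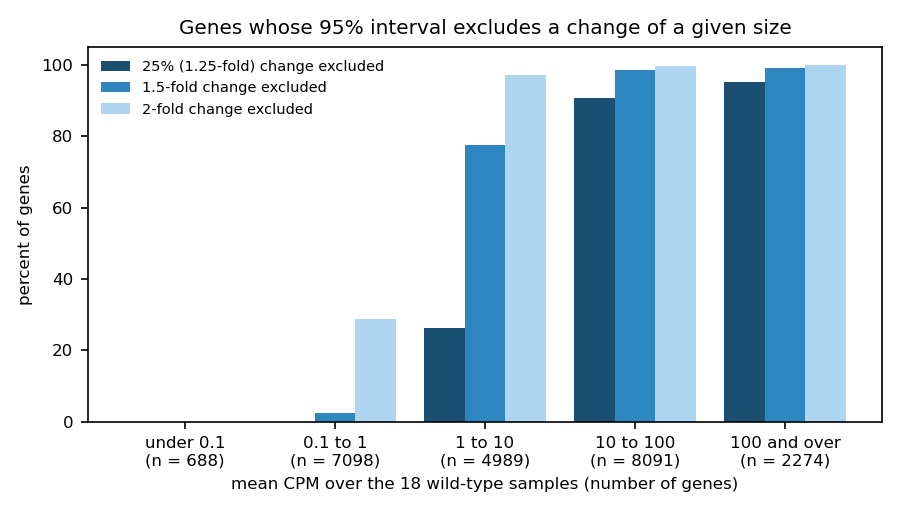
The bars give the percent of genes (y axis) whose 95% interval for CP2 minus vehicle excluded a 25%, 1.5-fold or 2-fold change, by mean CPM over the 18 WT samples (x axis, with the number of genes). No gene under 0.1 CPM had any of these sizes excluded, and from 10 CPM upwards over 90% of genes had all of them excluded.

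The plot of excluded sizes by level shows how sharply this turned. Of the 8091 genes between 10 and 100 CPM, 90.8% had a 25% change excluded, and of the 2274 genes at 100 CPM or above, 95.2%. Between 1 and 10 CPM this share was 26.2%, although a 2-fold change was still excluded for 97.1%. Between 0.1 and 1 CPM a 2-fold change was excluded for 28.9% of 7098 genes, and below 0.1 CPM for none of 688. Each interval holds for one gene at a time. With intervals widened to hold for all tested genes at once (Bonferroni), the shares among genes of at least 1 CPM were 80.6% for 2-fold, 58.0% for 1.5-fold and 14.6% for a 25% change.

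Transcripts of the respiratory chain were closely bounded. None of the 36 measured nuclear complex I subunits had even an unadjusted p under 0.05, against 6.08% of all genes, and their log2 fold changes ran from -0.10 to 0.03. A 1.5-fold change was excluded for all 36 and a 25% change for 31. The largest fold inside any of their intervals was 1.33. Their median was -0.02, with 32 of the 36 below 0, beside a median of 0.00 and 51.1% above 0 over all tested genes. Ndufs4, an accessory subunit, had a log2 fold change of -0.01 (95% interval -0.14 to 0.12). Ndufv1, which carries the NADH binding site, stood at -0.04 (-0.14 to 0.06) and Ndufa9, an accessory subunit, at -0.03 (-0.12 to 0.06). For the 17 assembly factors, which build the complex, a 25% change was excluded in every case. Among the 38 nuclear subunits of complexes II to V, 0 had an unadjusted p under 0.05 and all had a 1.5-fold change excluded. Examples are Sdha of complex II (-0.06, -0.15 to 0.03), Uqcrc1 of complex III (-0.03, -0.13 to 0.06) and Cox4i1 of complex IV (-0.03, -0.15 to 0.10).

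Transcripts of mitochondrial DNA tended the other way by a small amount. Of the 13 protein genes, 12 stood above 0, with a median log2 fold change of 0.05, and 10 had a 25% change excluded. The complex I subunit mt-Nd1 had 0.03 (95% interval -0.06 to 0.13), the complex IV subunit mt-Co1 0.03 (-0.07 to 0.14) and the complex III subunit mt-Cytb 0.05 (-0.05 to 0.15). Only mt-Atp6, a subunit of ATP synthase, had an unadjusted p under 0.05. Its level was 14.2 ± 3.19 CPM (SD, n = 10) under CP2 and 11.98 ± 2.02 CPM (SD, n = 8) under vehicle, with overlapping samples (log2 fold change 0.29, SE 0.12, adjusted p = 0.786). This was far below the mean levels of mt-Co1 (15714 CPM), mt-Cytb (6812 CPM) and mt-Nd1 (5386 CPM), and why so few reads were counted was not tested. mt-Atp6 overlaps mt-Atp8 on the mitochondrial genome, so both also depend on how the authors' counting treated shared reads. Whether this overlap or the handling of multiple matches lowered the mt-Atp6 count was not tested. The mt-Atp6 value may rest on a small part of its reads.

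**Figure D2:**
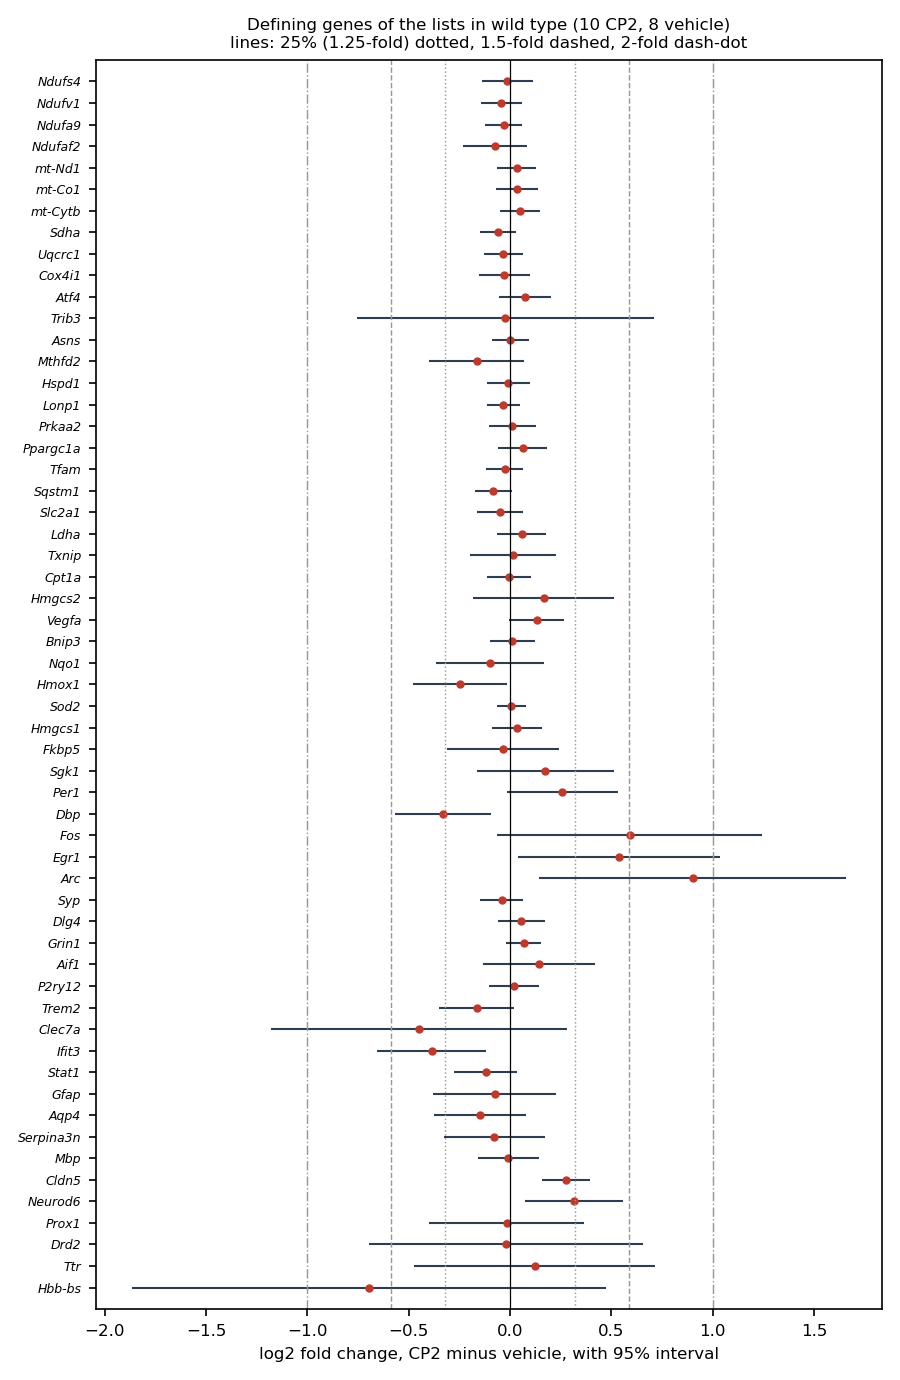
Each point is the log2 fold change of 1 defining gene of a list (x axis, CP2 minus vehicle in WT) and the line its 95% interval, with vertical lines at a 25% change, 1.5-fold and 2-fold in both directions. Respiratory chain genes such as Ndufs4 lie inside the lines for 25%, while Arc, Fos, Clec7a and Hbb-bs have intervals that pass 2-fold.

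The programmes that respond to a failing respiratory chain showed no called change either. Of the 27 measured genes of the ATF4 and mitochondrial stress response, 0 had an unadjusted p under 0.05, the median log2 fold change was -0.01, and a 1.5-fold change was excluded for 24. Asns, the asparagine synthetase that ATF4 induces, had 79.3 ± 4.10 CPM (SD, n = 10) under CP2 and 79.5 ± 5.601 CPM (SD, n = 8) under vehicle. Its samples ran from 71.5 to 83.8 CPM and from 71.4 to 85.6 CPM, and a change above 1.07-fold in either direction was excluded. Atf4 itself stood at 0.07 (95% interval -0.05 to 0.20) and Mthfd2, a mitochondrial folate enzyme, at -0.16 (-0.40 to 0.07). The exceptions were low transcripts. Trib3, a pseudokinase induced by ATF4, had a mean of 0.522 CPM and an interval from -0.76 to 0.71. Gdf15, the secreted stress hormone of this response, had 0.185 ± 0.135 CPM (SD, n = 10) under CP2 and 0.172 ± 0.169 CPM (SD, n = 8) under vehicle, and was the only gene of the list for which a 2-fold change was not excluded. For all 13 mitochondrial chaperones and proteases a 25% change was excluded, among them the folding chaperone Hspd1 (-0.01, -0.11 to 0.10) and the protease Lonp1 (-0.03, -0.12 to 0.05).

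Transcripts of energy sensing, fuel use and clearance gave the same kind of result. Only transcript levels were read, so the activity of AMPK and the rate of clearance were not measured. Of 23 genes of AMPK and mitochondrial biogenesis, 1 had an unadjusted p under 0.05, the AMPK subunit Prkab2 (log2 fold change 0.13, SE 0.06, adjusted p = 0.787). Prkaa2, the catalytic AMPK subunit, stood at 0.01 (95% interval -0.10 to 0.13), Ppargc1a, the coactivator of mitochondrial biogenesis, at 0.06 (-0.06 to 0.18) and Tfam, which maintains mitochondrial DNA, at -0.03 (-0.12 to 0.07). Of 23 autophagy and mitophagy genes, all had a 25% change excluded. The mitophagy receptor Optn alone had an unadjusted p under 0.05 (-0.18, SE 0.06, adjusted p = 0.729). In glycolysis, lactate and glucose transport, 3 of 27 genes had an unadjusted p under 0.05 and all 3 were higher. They were the monocarboxylate transporter Slc16a7 at 0.17, the phosphofructokinase Pfkp at 0.09 and Pfkfb3, which makes its activator, at 0.16. Ldha, the lactate dehydrogenase subunit, stood at 0.06 (-0.06 to 0.18) and the glucose transporter Slc2a1 at -0.05 (-0.16 to 0.06), and a 1.5-fold change was excluded for all 27. A 1.5-fold change was also excluded for all 20 fatty acid oxidation genes, of which 13 stood below 0 (median -0.04). In M the median was -0.12, with 4 of 20 above 0, and in F it was -0.003, with 10 of 20 above 0. Bdh1, a ketone body dehydrogenase, had an unadjusted p under 0.05 (-0.10, SE 0.05, adjusted p = 0.818). Cpt1a, which admits fatty acids to mitochondria, stood at 0.00 (-0.11 to 0.11).

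Oxidative stress, hypoxia and sterol genes added no called change. Of 26 genes of NRF2 and antioxidant defence, 22 stood below 0, with a median log2 fold change of -0.05, and 2 had an unadjusted p under 0.05, both lower. These were Hmox1, which degrades haem (-0.25, SE 0.11, adjusted p = 0.817), and catalase, Cat (-0.10, SE 0.05, adjusted p = 0.817). Hmox1 had 4.13 ± 0.636 CPM (SD, n = 10) under CP2 and 4.97 ± 0.809 CPM (SD, n = 8) under vehicle. Sod2, the mitochondrial superoxide dismutase, stood at 0.01 with a change above 1.06-fold excluded. Of 17 hypoxia-inducible factor targets, the repressor Bhlhe40 (0.22) and the demethylase Kdm3a (0.13) had an unadjusted p under 0.05, while the growth factor Vegfa stood at 0.13 (95% interval -0.00 to 0.27). For all 20 cholesterol synthesis genes a 1.5-fold change was excluded, and the mevalonate kinase Mvk alone had an unadjusted p under 0.05 (-0.15, SE 0.06, adjusted p = 0.803).

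The immediate early genes were the list with the largest share of genes at an unadjusted p under 0.05, 54.5%. These genes, such as Arc, Fos and the Egr family, are transcribed within minutes of neuronal firing and are used to mark recent activity. All 22 stood above 0 under CP2, with a median log2 fold change of 0.46 beside 0.00 over all tested genes, and 12 of the 22 had an unadjusted p under 0.05, against 3.3% of all genes in that direction. None was called, and their smallest adjusted p in the edgeR test was 0.66. A 2-fold change was excluded for 16 of them, a 1.5-fold change for 5 and a 25% change for 1, which was Jun (0.04, 95% interval -0.11 to 0.20). The number with an unadjusted p under 0.05 was 14 in DESeq2, 13 with a stricter filter on low counts and 12 without the letter. It was lower in other fits, with 6 with all 36 samples, 7 with 2 surrogate variables, 8 in limma voom, 3 in F alone and 6 in M alone. It was 7 without the CP2 F sample L240. Of the 22 genes, 19 stood above 0 in M alone and 19 without L240, while all 22 did in F alone. Leaving out any other single sample gave between 8 and 16.

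The spread between samples was wide. Summed over the 22 genes, CP2 F samples had 1137, 1447, 1826, 2055 and 2523 CPM and vehicle F samples had 978, 1026, 1115, 1316 and 1866 CPM. In M the sums were 1089, 1365, 1532, 1724 and 2179 CPM under CP2 and 1038, 1110 and 1299 CPM under vehicle. The ranges overlapped in both letters, through the vehicle F sample L252 at 1866 CPM and the CP2 samples L311 and L289 at 1137 and 1089 CPM. Arc, whose product acts at synapses, ran from 95.8 to 425 CPM under CP2 (median 193) and from 47.1 to 245.7 CPM under vehicle (median 100.2). Its log2 fold change was 0.90 (SE 0.36, 95% interval 0.15 to 1.66, adjusted p = 0.786). Egr2, a zinc finger factor, had the largest value of the list at 1.06 (SE 0.41, adjusted p = 0.786), and Nr4a1, an orphan nuclear receptor, stood at 0.78 (SE 0.25, adjusted p = 0.729). Egr1 stood at 0.54 (0.04 to 1.04) and Fos at 0.59 (-0.06 to 1.24). Npas4, which responds to calcium entry, had 0.20 (-0.49 to 0.89) and Bdnf, a neurotrophin, 0.20 (-0.06 to 0.46).

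**Figure D3:**
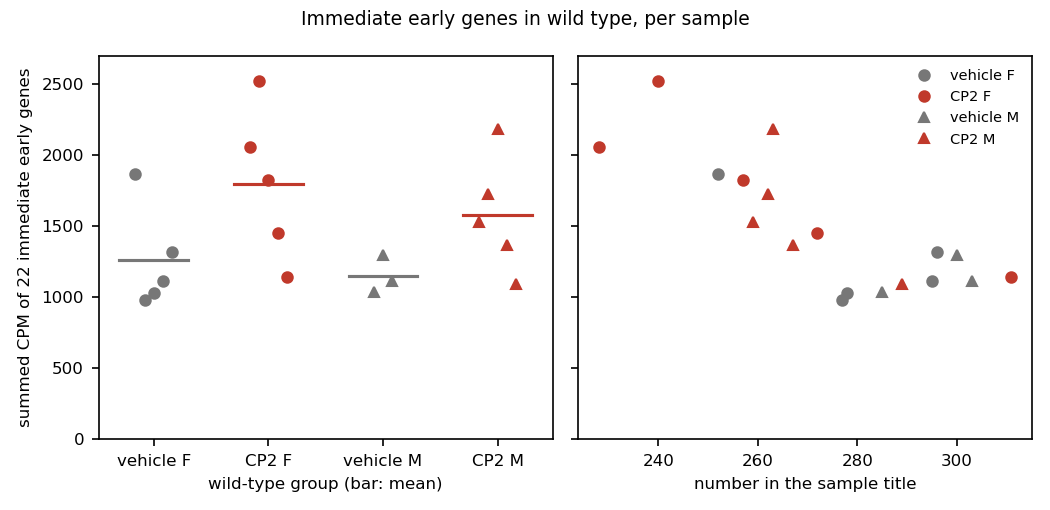
Summed CPM of the 22 immediate early genes in each WT sample (y axis), by treatment and letter on the left with bars at the means, and against the number in the sample title on the right. CP2 samples reach 2523 CPM and vehicle samples 1866 CPM, and the samples with the lowest numbers, mostly CP2, are the highest.

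The level of the immediate early genes also moved with the number in the sample title, which was itself lower under CP2. Over the 18 WT samples the summed level and the title number had a Pearson correlation of -0.80 (permutation p = 0.0001, 0.0026 after Benjamini-Hochberg adjustment over 26 lists) and a Spearman correlation of -0.74 (permutation p = 0.00071, adjusted 0.0185). Pearson's r was -0.79 without L228 and L311, the samples farthest from the median number. Within CP2 it was -0.84 (n = 10, permutation p = 0.00224). Within vehicle the relation did not pass the test: Pearson's r was -0.48 (n = 8, exact permutation p = 0.287) and Spearman's rho was 0.17. Without L252, the vehicle sample with the lowest number, r was 0.75 (n = 7, exact permutation p = 0.0409). So few samples cannot decide whether the relation holds within vehicle. With the title number as a covariate, the median log2 fold change of the list was 0.13, 19 of 22 genes stood above 0 and 1 had an unadjusted p under 0.05. Of the other 25 lists, only the hypoxia-inducible factor targets followed the number after adjustment, by Spearman's rho alone (-0.67, permutation p = 0.00333, adjusted 0.0433). The labels do not say what the number stands for, and its part in these values and that of CP2 cannot be told apart.

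Genes of neighbouring programmes gave smaller values. In the circadian clock list, 4 of 18 genes had an unadjusted p under 0.05. The activators Npas2 (log2 fold change 0.26) and Arntl (0.15) were higher under CP2, and the output factor Dbp (-0.33) and the repressor Bhlhe41 (-0.16) were lower. Per1, a clock gene that is also induced by activity, stood at 0.26 (95% interval -0.02 to 0.53). With both letters in the fit a 1.5-fold change was excluded for all 18, but for Dbp not in M alone. Dbp stood there at -0.59 (95% interval -0.86 to -0.33), beside -0.13 (-0.38 to 0.13) in F alone. Among 16 glucocorticoid-responsive genes only Klf9, a zinc finger factor, had an unadjusted p under 0.05 (0.13, SE 0.05, adjusted p = 0.754). Fkbp5, the co-chaperone that follows stress hormones, stood at -0.03 (-0.31 to 0.24) and the kinase Sgk1 at 0.17 (-0.16 to 0.51).

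Of 24 synaptic genes, 19 stood above 0 and 3 had an unadjusted p under 0.05, all of them glutamate receptor subunits. Gria2 had 509 ± 42.5 CPM (SD, n = 10) under CP2 and 448 ± 35.6 CPM (SD, n = 8) under vehicle (log2 fold change 0.17, SE 0.05, adjusted p = 0.66). Grin2a stood at 0.19 and Grin2b at 0.17. The vesicle protein Syp stood at -0.04 (95% interval -0.15 to 0.07) and the scaffold Dlg4 at 0.06 (-0.06 to 0.17), and a 1.5-fold change was excluded for all 24.

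**Figure D4:**
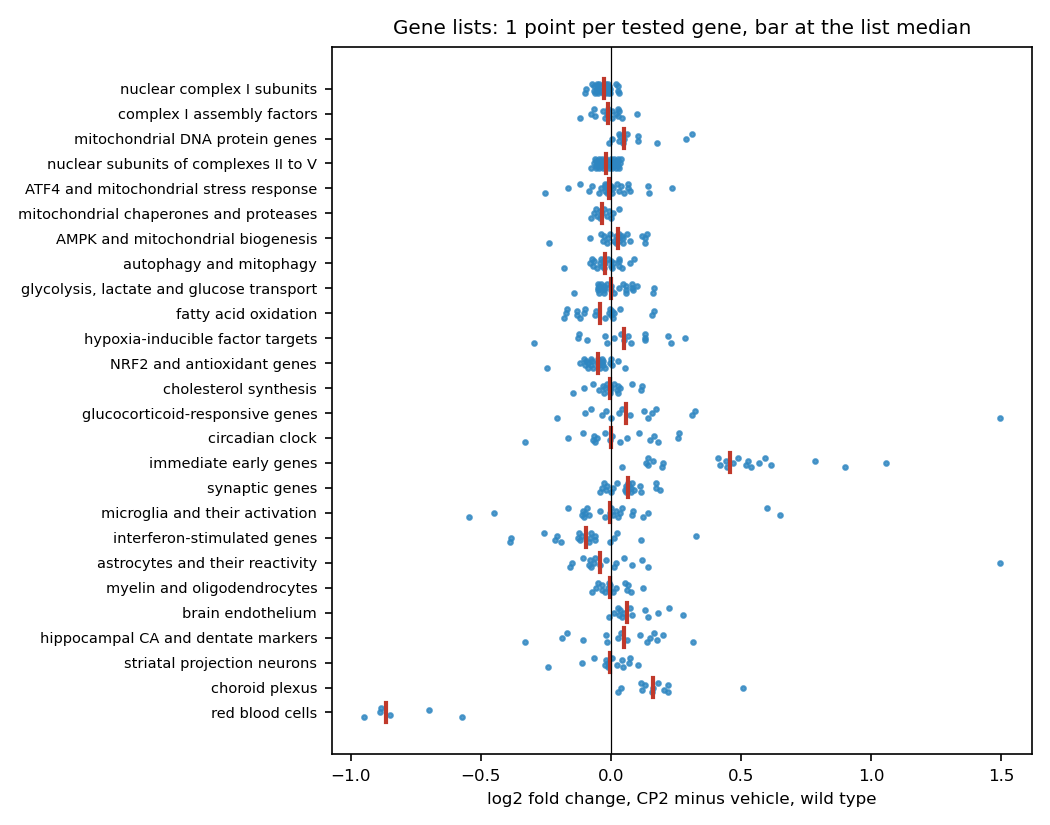
Each point is 1 tested gene of a list, at its log2 fold change for CP2 minus vehicle in WT (x axis), and the red bar is the median of the list. Most lists centre near 0, the immediate early genes have all 22 points above 0, and the 6 red cell genes all lie below 0.

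For glial and vascular markers, the limits apply to transcript levels and not to cell numbers. In bulk tissue, fewer cells of a type and less RNA per cell cannot be told apart. Of 24 microglial genes, 12 stood above 0 and 12 below, and 0 had an unadjusted p under 0.05. The surface receptor P2ry12 stood at 0.02 (95% interval -0.10 to 0.15) and Trem2, a lipid receptor, at -0.16 (-0.35 to 0.02). A 2-fold change was not excluded for 6 of the 24, which lay under 1 CPM, among them Clec7a (0.417 CPM, -1.18 to 0.28) and the cytokine gene Il1b (0.169 CPM, -1.18 to 1.36). Of 20 interferon-stimulated genes, 16 stood below 0 (median -0.10). Ifit1 (-0.38) and Ifit3 (-0.39, SE 0.13, adjusted p = 0.729), antiviral effectors induced by interferon, had an unadjusted p under 0.05. Gfap, the filament protein of reactive astrocytes, stood at -0.08 (-0.38 to 0.23) and Aqp4, the astrocyte water channel, at -0.15 (-0.38 to 0.08). Lcn2, a lipocalin of reactive astrocytes, had the widest bound of any listed gene, 8.46-fold, with 0.715 ± 0.855 CPM (SD, n = 10) under CP2 and 0.294 ± 0.297 CPM (SD, n = 8) under vehicle. For all 17 myelin and oligodendrocyte genes a 1.5-fold change was excluded, with Mbp, a myelin protein gene, at -0.01 (-0.16 to 0.14). Of 14 endothelial genes, 13 stood above 0 (median 0.06). Cldn5 and the growth factor receptor Kdr (0.23, SE 0.10, adjusted p = 0.818) had an unadjusted p under 0.05.

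Markers of brain regions had wide intervals. Mean levels were 16.5 CPM for the dopamine receptor Drd2, from the striatal list, 1278 CPM for Ttr, the transporter gene of the choroid plexus list, and 55.5 CPM for Neurod6, a factor of cortical and hippocampal pyramidal neurons. Which tissue these transcripts came from was not tested. A 25% change was excluded for 2 of 16 hippocampal, 0 of 14 striatal and 0 of 12 choroid plexus markers. Neurod6 (0.31) and the adhesion protein gene Amigo2 (-0.33) were the only genes of the hippocampal list with an unadjusted p under 0.05. The striatal list had a median log2 fold change of 0.43 in F, with 13 of 14 above 0, and -0.47 in M, with 0 above 0. Summed over its 14 genes, it ran from 452 to 1839 CPM under CP2 and from 598 to 934 CPM under vehicle in F, and from 415 to 782 CPM and 554 to 909 CPM in M, so the treatments overlapped in both. In F the CP2 samples L228 and L272 were highest, at 1839 and 1360 CPM. The median sum in F was 603 CPM under CP2 and 666 CPM under vehicle, the reverse of the median fold change. Choroid plexus markers all stood above 0 (median 0.16), with Ttr at 0.12 (95% interval -0.47 to 0.72). In F alone 7 of the 12 stood above 0 (median 0.08), and in M alone all 12 did (median 0.31). Their summed level in F had a median of 1226 CPM under CP2 and 1692 CPM under vehicle. In M the medians were 1124 and 948 CPM. Red cell transcripts had wider intervals still, with 4.10 as the median of the largest fold inside them. The 6 genes had a median log2 fold change of -0.87, with 0.18 in F and -2.005 in M, and for none was even a 2-fold change excluded. Hbb-bs, a beta globin gene, ran from 40.4 to 67.9 CPM in CP2 M and stood at 59.6, 217 and 321.7 CPM in vehicle M, while in F the highest sample was L311 at 429 CPM under CP2. With the mean log2 CPM of the hippocampal markers as a covariate, 0 genes were called in WT by edgeR, with 1569 at an unadjusted p under 0.05. The part of the striatal, choroid plexus or red cell lists in other values was not tested.

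The 12 genes with the smallest p, 6 in each direction, differed by modest amounts. Of those higher under CP2, Cldn5, the main claudin of the blood-brain barrier, ran from 28.8 to 42.7 CPM under CP2 (median 34.9) and from 24.5 to 34.6 CPM under vehicle (median 29.7). The M groups did not overlap, and in F only 1 CP2 sample lay below 1 vehicle sample. Its log2 fold change was 0.28 (SE 0.06, 95% interval 0.16 to 0.40, adjusted p = 0.367). Ggn, gametogenetin, was low in all samples. It ran from 1.12 to 1.70 CPM under CP2 and from 0.480 to 1.03 CPM under vehicle, so all 10 CP2 samples lay above all 8 vehicle samples (0.83, SE 0.18, 0.46 to 1.21, adjusted p = 0.422). The others were Neto2, an auxiliary subunit of kainate receptors (0.20), the syntrophin Sntb2 (0.29), the activity-regulated kinase Plk2 (0.23) and Col4a1, a basement membrane collagen (0.25). The largest fold inside any of these 4 intervals was 1.35.

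Of those lower under CP2, Ass1, which makes argininosuccinate on the way to arginine, had the smallest p. It ran from 23.2 to 35.1 CPM under CP2 (median 29.9) and from 33.2 to 41.9 CPM under vehicle (median 38.3), without overlap in M and with overlap in F. Its log2 fold change was -0.31 (SE 0.06, 95% interval -0.44 to -0.19, adjusted p = 0.213). Vwa5b1 ran from 8.57 to 14.5 CPM and from 13.3 to 20.4 CPM, without overlap in F and with 1 low vehicle sample in M (-0.52, SE 0.10, -0.73 to -0.31, adjusted p = 0.213). Mrgpre, a Mas-related receptor, ran from 9.61 to 14.0 CPM and from 13.5 to 17.4 CPM, without overlap within either letter (-0.39, SE 0.08, -0.54 to -0.23, adjusted p = 0.213). Tsku, a secreted leucine-rich protein, stood at -0.61 (-0.89 to -0.34) and Tmie, part of the mechanotransduction channel of hair cells, at -0.48 (-0.70 to -0.27). Both separated the treatments in F and not in M. The serotonin receptor Htr7 stood at -0.33 (-0.50 to -0.17).

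**Figure D5:**
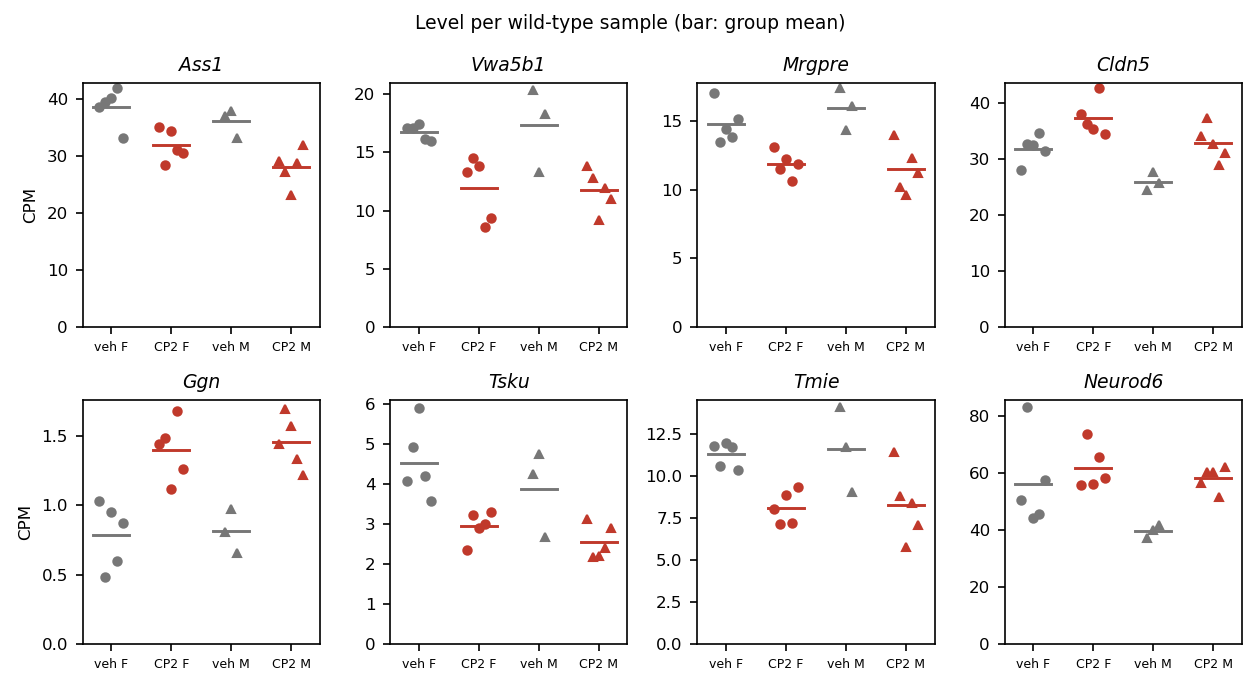
CPM per WT sample (y axis) for 8 genes by treatment and letter (circles F, triangles M), with bars at the group means. Ggn separates all CP2 from all vehicle samples, Mrgpre separates them within F and within M, and Neurod6 separates them in M only.

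In DESeq2, the 7 genes called were Ass1, Vwa5b1, Mrgpre, Tsku and Tmie, lower under CP2, and Cldn5 and Ggn, higher. Their log2 fold changes there ran from -0.61 for Tsku (SE 0.13, adjusted p = 0.0243) to 0.84 for Ggn (SE 0.18, adjusted p = 0.023). Complete separation of the treatments in F and in M at once was rare. It held for 1 gene higher under CP2, Ggn (0.00432% of tested genes), and 2 lower, Mrgpre and the microtubule-associated Eml3 (0.00864%). Of the 14112 ways to assign the treatments within the letters, 1 gives such separation in each direction. With 23140 genes tested, a few such genes are expected by chance, so their separation is a description only. Eml3 had 13.0 ± 1.01 CPM (SD, n = 10) under CP2 and 15.6 ± 1.15 CPM (SD, n = 8) under vehicle (-0.27, SE 0.06, adjusted p = 0.657). With the title number as a covariate, 4 genes were called, all lower under CP2. They were Vwa5b1 (-0.69, SE 0.10, adjusted p = 0.0126), the neuropeptide gene Tac2 (-0.82, SE 0.13, adjusted p = 0.0126), Nkx2-1, a homeobox factor of the ventral forebrain (-1.48, SE 0.24, adjusted p = 0.0298), and Sfta3-ps (-1.93, SE 0.33, adjusted p = 0.0298). Without it Tac2 stood at -0.54, Nkx2-1 at -0.87 and Sfta3-ps at -1.16. Tac2, Nkx2-1 and Sfta3-ps were chosen for mention after their values were seen.

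Taken alone, the 10 F samples gave 0 called genes in edgeR, with 544 of 19605 (2.77%) at an unadjusted p under 0.05. The 8 M samples gave 1 (0.00466% of 21437), with 1522 (7.1%) at an unadjusted p under 0.05. That gene was Neurod6, with 58.2 ± 4.22 CPM (SD, n = 5) under CP2 and 39.6 ± 2.29 CPM (SD, n = 3) under vehicle in M (log2 fold change 0.56, SE 0.07, edgeR adjusted p = 0.0311). In F the CP2 samples had 61.9 ± 7.72 CPM (SD, n = 5) and the vehicle samples 56.1 ± 15.9 CPM (SD, n = 5), a log2 fold change of 0.14. The hippocampal list that holds Neurod6 had a median of 0.26 in M, with 13 of 16 genes above 0, and of -0.18 in F, with 4 of 16 above 0, and its part in the Neurod6 value was not tested. Over both letters Neurod6 was called when the vehicle F sample L277, at 83.1 CPM, was left out (0.43, adjusted p = 0.0246). A direct test of F against M effects called 0 genes, with 690 (2.98%) at an unadjusted p under 0.05 in edgeR, and 0 with 837 in DESeq2. F and M samples also differed in the share of reads outside genes, without overlap. Across 15349 genes with at least 1 CPM, values in F and in M were related with a Pearson correlation of 0.19, as a description across genes, which are not independent replicates.

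The same treatment was read in KO to see whether its size there would have been visible in WT. In 10 CP2 and 8 vehicle KO samples, edgeR called 11 of 24260 genes (0.0453%), 5 higher and 6 lower, with 3105 (12.8%) at an unadjusted p under 0.05. Of the 11, 10 were tested in WT, and for all 10 the WT 95% interval excluded the KO value. These genes were chosen by their KO values, which tends to enlarge them. In KO M the share of reads outside genes was 7.24% to 10.9% under CP2 and 13.2% to 14.8% under vehicle, without overlap. In KO F it was 7.94% to 12.9% and 8.19% to 13.6%. In KO M this share and CP2 cannot be told apart. S100b, an astrocyte calcium-binding protein, rose by 0.63 on the log2 scale in KO (SE 0.10, adjusted p = 0.0335) and stood at -0.04 in WT (95% interval -0.18 to 0.09). Hist1h2bc, a histone gene with close copies, rose by 0.62 in KO and stood at 0.04 in WT (-0.15 to 0.24). Rida, a deaminase, rose by 0.46 and stood at -0.06 (-0.24 to 0.13), and the netrin receptor Unc5b rose by 0.52 and stood at -0.01 (-0.19 to 0.16). L3mbtl1, a chromatin reader, fell by 0.70 in KO and stood at -0.13 in WT (-0.30 to 0.04). The non-coding Mirg fell by 0.89 and stood at 0.13 (-0.15 to 0.40), Snapc4, a factor for small nuclear RNA genes, fell by 0.50 and stood at 0.06 (-0.09 to 0.22), and Tcea2, an elongation factor, fell by 0.40 and stood at -0.08 (-0.23 to 0.07).

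The difference between the KO and WT effects, tested over all 36 samples, was called for 0 of 25601 genes in edgeR (smallest adjusted p 0.0832), with 3100 (12.1%) at an unadjusted p under 0.05. DESeq2 called 158 genes and limma voom 713 for the same difference, and leaving out 1 sample at a time gave between 0 and 127 in edgeR, the highest without the KO CP2 F sample L201. The count of 11 in KO was as unsteady, with 0 when the title number or the share of reads outside genes was a covariate and 179 without that sample. For the immediate early genes the median log2 fold change was -0.46 in KO, with 21 of 22 below 0, and the median difference of KO minus WT was -0.99. In KO, every CP2 sample had a lower title number than every vehicle sample of its letter, so number and CP2 cannot be told apart in the KO value or in the difference from WT. Of the 22, 12 had an unadjusted p under 0.05 for that difference, all lower in KO, against 6.19% of all tested genes in that direction, and none was called.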

How the data were processed

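PolyA-selected RNA from 36 mouse brain samples was sequenced, and the 18 WT samples were compared. The deposited values are raw counts per Ensembl gene. Per the submitters' processing notes, STAR, HTSeq and the build GRCm39 were used. Strandedness and handling of multiple matches are not given in the sources used here, so overlapping genes and near-identical copies are uncertain, and no coordinates are given. The 5 summary rows of the counter were left out of library sizes and tests. The share of reads outside genes is that of reads with no gene or more than 1 gene, over all rows. Symbols from GENCODE M21 matched 52073 of 56980 identifiers (91.4%, with 97.2% of counts). Of 522 listed symbols, 520 matched and 518 were tested.

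Genes were tested with edgeR 4.0.16 in R 4.3.3 (filterByExpr, TMM, robust quasi-likelihood fit, letter as covariate, Benjamini-Hochberg over all tested genes). Intervals are 95% t intervals on the moderated degrees of freedom. CPM use TMM library sizes. The methods were tested on simulated data. No replicate pair agreed within sampling noise (33 pairs, mean chi-square per gene at least 12.1). Alternatives were DESeq2 1.42.0, limma 3.58.1 voom, sva 3.50.0, other filters, scalings and covariates, and leaving out each sample. Members and gene lists were chosen with earlier results of these data known. Named genes are defining genes of each list, the 6 smallest p in each direction, genes without overlap in F and M, the 4 smallest p in each direction in KO, and check genes, at a mean of at least 1 CPM for all but the lists and checks. Other list members were picked as examples after their values were seen. A defining gene of the lists is not reported here.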

Additional observations from a re-analysis of the deposited data

Results flagged for a closer look

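Each group of 5 WT samples was screened for 1 sample lying far from the rest, in 318 combinations of group and value. Of these, 20 stood out, and chance gives about 1 in 20. In vehicle F, L252 had the highest Arc (245.7 CPM), Per1 (124 CPM) and Mthfd2 (13.2 CPM) and the lowest Dbp (53.9 CPM), and L277 had the lowest S100b (118 CPM) and the highest Tcea2 (26.8 CPM). In CP2 F, L311 had the highest Hbb-bs (429 CPM) and red cell sum (771 CPM) and the lowest Vegfa (47.3 CPM) and cholesterol synthesis sum (1370.4 CPM). L240 had the lowest Asns (75.2 CPM) and the highest astrocyte sum (6764 CPM) and interferon-stimulated sum (151 CPM), and L257 had the lowest Eml3 (11.8 CPM). In CP2 M, L289 had the highest Grin1 (419 CPM) and the lowest Hspd1 (133 CPM) and sum of hypoxia-inducible factor targets (699 CPM). L263 had the lowest Unc5b (51.7 CPM), and L262 the lowest Ifit3 (4.53 CPM) and the most gene counts (77469100).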

How the results depend on the processing

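No paired analysis was possible because no sample number is shared between the CP2 and vehicle groups. In WT, 0 genes were called under every alternative except DESeq2 (7), M samples alone (1) and the title number as a covariate (4). Leaving out 1 sample at a time gave 0 to 1. The difference between F and M was called for 0 genes in every fit. The percent of genes with a 2-fold change excluded was 74.5 and became 73.4 with 2 surrogate variables, 66.7 with all 36 samples, 75.5 in DESeq2, 78.3 in F, 71.3 in M, 43.3 with no filter on low counts, 73.2 without the letter, 99 with the stricter filter and 70.9 with the title number, and 69.7 to 75.1 leaving out 1 sample at a time. For 1.5-fold it was 61.7, and in the same order 60.8, 54.6, 62.3, 64.2, 57.4, 35.7, 60.3, 91.5 and 58.8, and 57.5 to 62.2. The filters move these shares by changing how many low genes are counted. In KO, 11 genes became 2 with surrogate variables, 1002 with all 36 samples, 389 in DESeq2, 0 in F, 46 with the hippocampal level, 159 with the letter by treatment, 459 in voom, 1524 in M, 22 with no filter, 4 without the letter, and 0 with the share outside genes or the title number, and 0 to 179 leaving out 1 sample. The difference of KO and WT became 183 with all 36 samples, 158 in DESeq2, 92 with the hippocampal level, 713 in voom, 1397 in M and 4 with the stricter filter, and 0 to 127 leaving out 1 sample. The cause was not tested. Of the log2 fold changes of the named genes, 0 reversed while called, but only called genes could count and few were called. Outside the fits that left out 1 sample, 9 values were called in the same direction, and 9 others moved by at least the SD between samples. With 1 sample left out, 1 value was called in the same direction. Below 1 CPM, changes were excluded for smaller shares of genes than at higher levels.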
